A study of Homo sapiens with 6 samples.

Results

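The 9 genes described here encode the enzymes that make, salvage and break down deoxynucleotides, the building blocks of DNA: RRM1, RRM2, RRM2B, TYMS, DUT, TK1, DTYMK, DCK and SAMHD1. They were picked by symbol, and each was read from the probe set that lists this gene alone, or, where there were several, the brightest on average. All 9 were found, among 18417 genes read in the same way from 33297 probe sets. The study measured gene expression in RPMI 8226, an established human multiple myeloma cell line derived from malignant plasma cells. Cells received 6 Gy or 0 Gy of carbon ions, a densely ionizing particle beam, and all were grown in the same medium with fetal calf serum, glutamine and antibiotics. Total RNA was taken 1 day later from 3 irradiated and 3 unirradiated samples, each labelled with biotin and run on its own 1-colour array. Whether the 3 samples of a dose are separate cultures is not stated; if they are not, the p-values below rest on technical spread alone.

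A dividing cell needs the 4 deoxynucleotides in balance, and it makes them by a de novo route and a salvage route. Ribonucleotide reductase, built from the large subunit RRM1 and a small subunit that is RRM2 in S phase or the p53-inducible RRM2B, turns ribonucleotides into deoxynucleotides. Thymidylate has its own supply line, in which DUT removes dUTP and yields dUMP, TYMS methylates dUMP to dTMP, TK1 salvages thymidine to dTMP, and DTYMK phosphorylates dTMP further. DCK salvages deoxycytidine, deoxyadenosine and deoxyguanosine, and it also activates the drugs cytarabine and gemcitabine. SAMHD1 works the other way: it hydrolyses deoxynucleoside triphosphates, the active form of cytarabine among them. After DNA damage the pools are drawn on for repair as well as for replication.

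One day after carbon ions, the mRNAs of this enzyme set differed little between the 2 doses. DCK fell by 0.34 on the log2 scale (1.26-fold lower) and SAMHD1 rose by 0.26 (1.20-fold higher), and the other 7 genes did not pass the test. A gene is called changed here when its adjusted p is under 0.05 in limma, a linear model with a shared variance prior fitted on all 18417 genes with Benjamini-Hochberg adjustment. By that rule 1 member rose and 1 fell, where 6.35% of all genes rose, 8.18% fell and 14.5% changed in either direction. With 9 members, 1 call in each direction is close to these shares. The median log2 difference of the members was -0.03, against 0.04 for all genes, and their differences ran from -0.34 to 0.26. The values of the irradiated and unirradiated arrays did not overlap for 4 members (RRM1, TK1, DCK and SAMHD1), where this held for 34.7% of all genes. In RNA from whole cultures, fewer cells of a kind and less RNA per cell cannot be told apart.

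**Figure D1:**
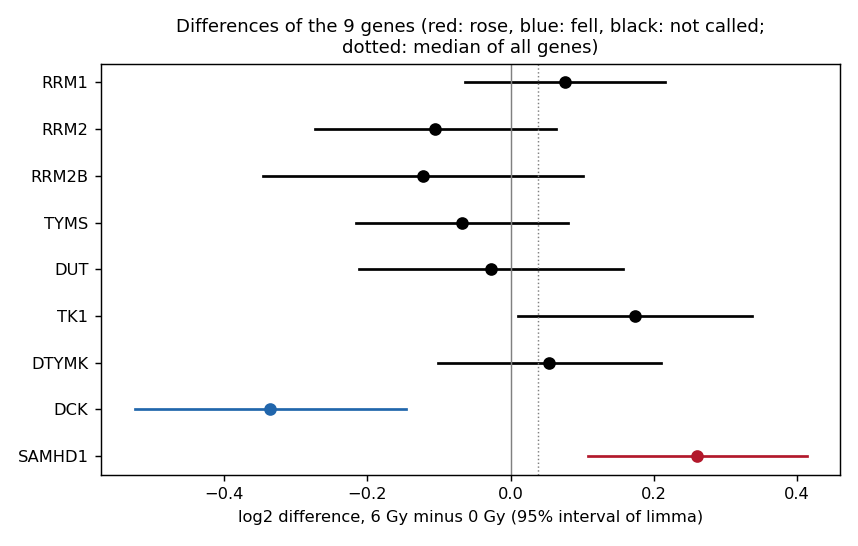
Log2 difference between irradiated and unirradiated arrays (6 Gy minus 0 Gy, horizontal axis) of each of the 9 genes, as a point with the 95% interval of the limma fit over 3 arrays a dose. DCK (-0.34) and SAMHD1 (0.26) lie farthest from the median of all genes (0.04, dotted line), and 6 of the other intervals include 0.

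The deposited values were read as log2 intensities. Array medians lay between 5.66 and 5.72 on irradiated and between 5.64 and 5.67 on unirradiated arrays, and the number of arrays limits the precision. Upper quartiles did not overlap: they lay between 7.87 and 7.91 on irradiated and between 7.92 and 7.96 on unirradiated arrays. Of 8 plasma cell markers, 7 were brighter than 7.96, the highest upper quartile of any array, on all 6 arrays, and SLAMF7 was dim, at 5.18 in irradiated and 4.63 in unirradiated cells. None of 3 T cell, 3 monocyte and 3 stromal markers was that bright on all 6 arrays (0 of 9), and of the 2 measured mature B cell markers MS4A1 was, at 9.11 in irradiated and 8.57 in unirradiated cells. The log2 of the summed marker intensities ran from 13.77 to 13.80 on irradiated and from 13.89 to 13.91 on unirradiated arrays for plasma cells, and from 9.19 to 9.34 on irradiated and from 8.67 to 8.85 on unirradiated arrays for mature B cells. The same sum ran from 6.58 to 6.83 on irradiated and from 6.38 to 6.67 on unirradiated arrays for T cells. For monocytes it ran from 6.09 to 6.15 on irradiated and from 5.86 to 6.09 on unirradiated arrays. For stromal cells it ran from 7.54 to 7.76 on irradiated and from 7.40 to 7.47 on unirradiated arrays. The mature B cell sum rests on MS4A1, as PAX5 was dim (5.86 in irradiated and 5.66 in unirradiated cells). Plasma cell markers moved in either direction: SLAMF7 differed by 0.55, CD38 by -0.42 and XBP1 by -0.23, and the rest were not called. The part of these marker differences in the results below was not tested. No detection calls were used, and the level of 1 probe set cannot be set against that of another. Of the 9 members, 7 were above 7.96 on all 6 arrays. RRM2B was below it on all 6 and DCK on irradiated replicates 1 and 3.

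Ribonucleotide reductase came first in the pathway. RRM1, its catalytic and regulatory large subunit, had log2 values of 9.99, 10.02 and 10.02 in irradiated cells and 9.96, 9.92 and 9.92 in unirradiated cells. Every irradiated value was above every unirradiated one, but the gap was small: the difference was 0.08 ± 0.06 (SE), with a limma adjusted p of 0.452. RRM2, the small subunit whose protein is made in S phase, had 9.79, 9.91 and 9.93 in irradiated cells and 9.95, 9.91 and 10.08 in unirradiated cells. The groups overlapped, and the difference of -0.11 ± 0.08 (SE) did not pass (limma adjusted p 0.387). RRM2B, the small subunit used outside S phase and under p53, had 7.32, 7.63 and 7.26 in irradiated cells and 7.52, 7.60 and 7.46 in unirradiated cells. Irradiated replicate 2 was the highest of the 6 arrays and the other irradiated arrays were the lowest. The difference was -0.12 ± 0.10 (SE), with a limma adjusted p of 0.449, and its size turned on single arrays. It was -0.24 without irradiated replicate 2 (adjusted p 0.0923), -0.08 without irradiated replicate 1 (0.684), -0.05 without irradiated replicate 3 (0.802) and between -0.16 and -0.08 without an unirradiated array. The 95% interval for RRM2B ran from -0.35 to 0.10, so that a rise above 1.07-fold lies outside it.

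RRM2B is known as a p53 target, so 21 other genes of that kind were read in the same fit. Of these, 4 rose, 1 fell and 16 did not pass, with a median log2 difference of -0.02. Of all genes, 6.35% rose and 8.18% fell. The values of the doses did not overlap for 10 of the 21 (47.6%), against 34.7% of all genes. CDKN1A, the cell cycle inhibitor, differed by 0.18 ± 0.10 (SE; limma adjusted p 0.246). MDM2, the ubiquitin ligase of p53, rose by 0.37 ± 0.11 (SE; limma adjusted p 0.0499), and that call ended without any 1 of 5 arrays (adjusted p up to 0.156); it held without irradiated replicate 3. The others that rose were TIGAR (0.53), FAS (0.35) and the translesion polymerase gene POLH (0.26), and the damage sensor gene XPC fell by 0.54; these 4 were chosen after their values were seen. The call of POLH ended without the same 5 arrays (adjusted p up to 0.123), which left 2 that rose. With unirradiated replicate 2 or irradiated replicate 3 left out, 2 of the list fell. The balance also turned with the processing: 2 rose and 3 fell with array medians subtracted, and 4 rose and 3 fell with the dimmest 33.3% of genes left out or with an intensity trend and a robust prior.

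The thymidylate enzymes followed no common direction. TYMS, the target of fluorouracil, had log2 values of 10.75, 10.70 and 10.83 in irradiated cells and 10.82, 10.82 and 10.85 in unirradiated cells. Irradiated replicate 3 lay among the unirradiated arrays and the other irradiated arrays lay below them, and the difference was -0.07 ± 0.07 (SE; limma adjusted p 0.534). TK1, the S-phase thymidine kinase, had 10.77, 10.90 and 10.76 in irradiated cells and 10.63, 10.71 and 10.57 in unirradiated cells. All irradiated values were higher, by 0.17 ± 0.07 (SE) or 1.13-fold, and the unadjusted limma p was 0.0397, yet the adjusted p was 0.146. TK1 was thus not called, and in the 14 alternative fits its adjusted p lay between 0.0522 and 0.329.

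DUT, the dUTPase that keeps uracil out of DNA, had log2 values of 9.65, 9.93 and 9.72 in irradiated cells and 9.80, 9.76 and 9.82 in unirradiated cells. The irradiated values lay on either side of the unirradiated ones. The difference of -0.03 ± 0.08 (SE) was the smallest of the 9 (limma adjusted p 0.855), and it was 0.03 without irradiated replicate 1. DTYMK, the thymidylate kinase, had 8.55, 8.53 and 8.42 in irradiated cells and 8.50, 8.41 and 8.41 in unirradiated cells. The groups overlapped and differed by 0.05 ± 0.07 (SE; limma adjusted p 0.640). DTYMK is listed for 2 probe sets that hold identical values on every array, and these were counted as 1 measurement. For the 7 members that were not called, the 95% intervals lay between -0.35 (RRM2B) and 0.34 (TK1), so a change beyond 1.27-fold in either direction lies outside all of them.

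**Figure D2:**
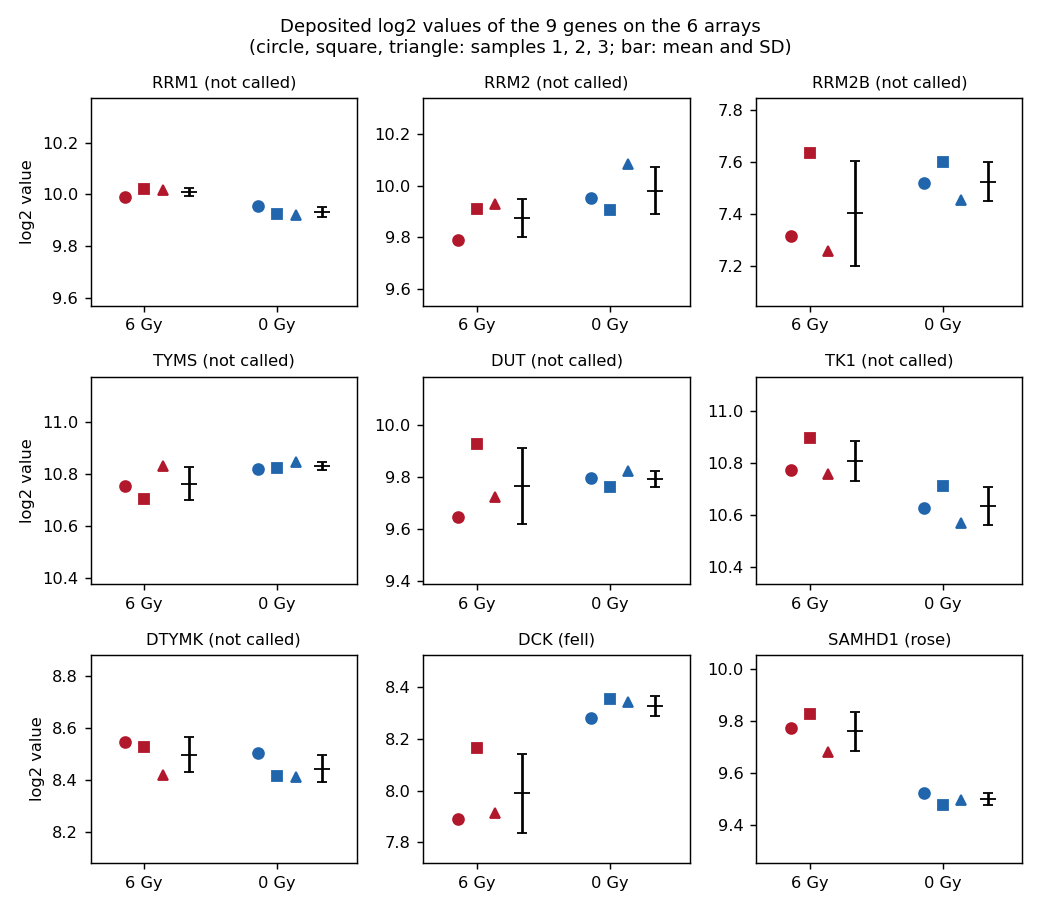
Deposited log2 values (vertical axis, of the same span in every panel) of the 9 genes on the 3 irradiated arrays (6 Gy, red, left) and the 3 unirradiated arrays (0 Gy, blue, right), with the mean and SD of each dose in black. The doses are fully apart for RRM1, TK1, DCK and SAMHD1; irradiated replicate 2 (red square) stands above the other irradiated arrays for RRM2B, DUT and DCK.

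DCK, which starts the salvage of deoxycytidine and of the purine deoxynucleosides, had the largest difference of the 9. Its log2 values were 7.89, 8.16 and 7.91 in irradiated cells and 8.28, 8.35 and 8.34 in unirradiated cells. All irradiated arrays were below all unirradiated arrays, with irradiated replicate 2 nearest to them. The mean was 7.99 ± 0.15 in irradiated cells and 8.32 ± 0.04 in unirradiated cells (SD, n = 3 each), a difference of -0.34 ± 0.08 (SE) with a limma adjusted p of 0.0272. The 95% interval ran from -0.53 to -0.15. Without irradiated replicate 2 the difference was -0.42 and the adjusted p 0.00885. The call ended with any other array left out: the adjusted p was 0.0853 and 0.0711 without irradiated replicates 1 and 3, and 0.0629, 0.0910 and 0.0759 without unirradiated replicates 1, 2 and 3. The difference lay between -0.42 and -0.29 in these fits, where the sign could not turn because the doses did not overlap.

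SAMHD1, the deoxynucleotide triphosphohydrolase, moved the opposite way. Its log2 values were 9.77, 9.83 and 9.68 in irradiated cells and 9.52, 9.48 and 9.49 in unirradiated cells. All irradiated arrays were above all unirradiated arrays. The mean was 9.76 ± 0.08 in irradiated cells and 9.50 ± 0.02 in unirradiated cells (SD, n = 3 each), a difference of 0.26 ± 0.07 (SE) with a limma adjusted p of 0.0314. The 95% interval ran from 0.11 to 0.41. The call held without irradiated replicate 3 (adjusted p 0.0268) and ended with any other array left out: the adjusted p was 0.0809 and 0.0911 without irradiated replicates 1 and 2, and 0.0780, 0.1025 and 0.0795 without unirradiated replicates 1, 2 and 3. The difference lay between 0.23 and 0.30 in these fits.

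**Figure D3:**
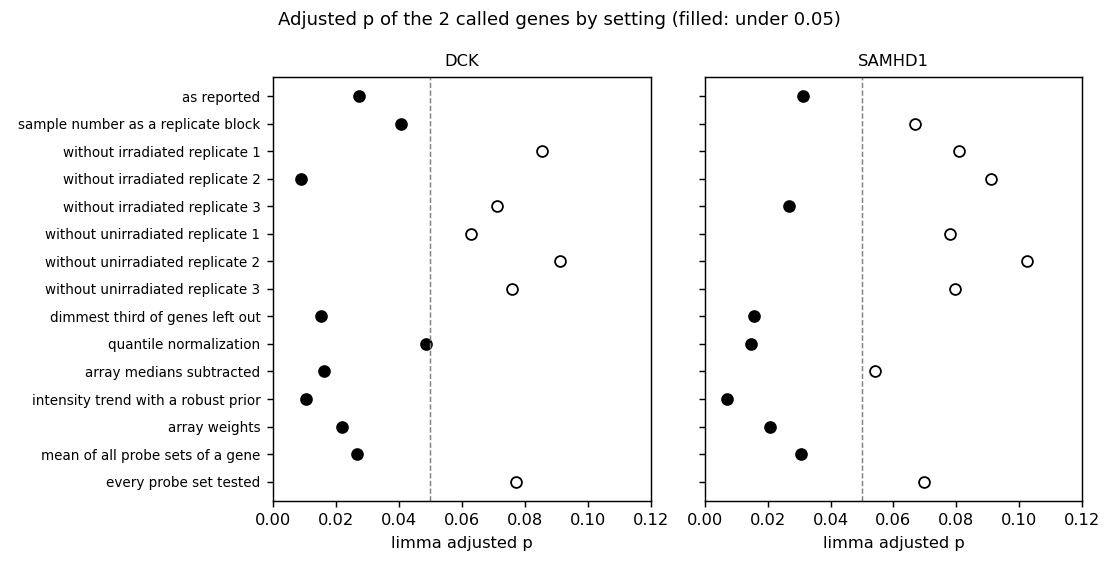
Limma adjusted p (horizontal axis) of DCK and SAMHD1 in the reported fit and in 14 alternatives (rows); filled points are under the threshold of 0.05 (dashed line). DCK stayed under it in 8 alternatives and SAMHD1 in 6.

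The promoters of DCK and SAMHD1 are shown because these are the members that were called, and that of TYMS because it shares a motif with DCK and was not called. Each runs from 250 bases before the annotated start to 30 bases after it, 5′ to 3′ on the gene's strand, taken from RefSeq on GRCh38.p14: chr4:70993399-70993678 (plus strand) for DCK, chr20:36951679-36951958 (minus strand) for SAMHD1 and chr18:657403-657682 (plus strand) for TYMS. Capitals mark matches to an E2F motif (TTTCCCGC, TTTCGCGC, TTTGCCGC or TTTGGCGC) or to CCAAT, searched on both strands.
DCK: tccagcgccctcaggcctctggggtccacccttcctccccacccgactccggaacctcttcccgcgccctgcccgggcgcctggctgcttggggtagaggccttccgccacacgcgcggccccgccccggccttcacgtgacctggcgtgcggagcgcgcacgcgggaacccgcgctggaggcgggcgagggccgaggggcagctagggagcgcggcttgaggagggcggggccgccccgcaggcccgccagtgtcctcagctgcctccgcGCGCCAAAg
SAMHD1: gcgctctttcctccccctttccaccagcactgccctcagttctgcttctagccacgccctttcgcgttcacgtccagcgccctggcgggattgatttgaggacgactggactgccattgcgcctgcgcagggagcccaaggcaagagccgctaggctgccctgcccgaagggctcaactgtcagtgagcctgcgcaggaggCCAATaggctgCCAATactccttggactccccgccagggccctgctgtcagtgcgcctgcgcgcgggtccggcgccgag
TYMS: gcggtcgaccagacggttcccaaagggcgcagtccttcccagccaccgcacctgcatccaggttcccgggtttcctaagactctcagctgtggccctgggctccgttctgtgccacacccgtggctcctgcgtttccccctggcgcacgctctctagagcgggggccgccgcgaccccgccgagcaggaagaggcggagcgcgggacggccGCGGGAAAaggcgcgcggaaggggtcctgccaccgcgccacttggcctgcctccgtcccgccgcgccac
The match in DCK began 21 bases after the start and was TTTGGCGC on the opposite strand. That in TYMS was TTTCCCGC on the opposite strand, at -39 from the start, and the 2 CCAAT matches of SAMHD1 were at -49 and -38. RefSeq windows of 300 bases were searched for 8 of the 9 members, 13 windows in all because some genes have several starts. RRM2B was left out of the search, so the counts below do not cover it. An E2F match stood in 3 of these 13 windows, 1 each of TYMS, DCK and DUT, and in 3.3% of all 34943 promoter windows. CCAAT stood in 6 of the 13, of RRM1, RRM2, TK1, SAMHD1 and DTYMK, and in 34.65% of all windows. A match is a run of letters, and binding was not measured. Of the 3 genes with an E2F match, DCK fell and TYMS and DUT did not pass the test; of the 5 with CCAAT, SAMHD1 rose and the other 4 did not pass.

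Members that serve the same step were also compared with each other on the same array, which asks whether they changed by unequal amounts. A difference of log2 values between 2 probe sets has no meaning as a level, so only its shift between doses is read. For 3 such pairs the shift was tested with a two-sided exact permutation test over the 6 arrays, which cannot give a p under 0.1 with 3 arrays against 3. RRM2 minus RRM2B, the exchange of the small subunit, was 2.47, 2.27 and 2.67 in irradiated cells and 2.43, 2.30 and 2.63 in unirradiated cells. The groups overlapped fully and the shift was 0.02 (exact p 0.8, adjusted 0.8 over the 3 pairs); it was -0.08 without irradiated replicate 3 and -0.06 without unirradiated replicate 2. RRM1 minus RRM2, the large against the small subunit, was 0.20, 0.11 and 0.09 in irradiated cells and 0.00, 0.02 and -0.16 in unirradiated cells. The groups did not overlap, with a shift of 0.18 (exact p 0.1, the smallest possible; adjusted 0.15). TYMS minus TK1, de novo against salvaged thymidylate, was -0.02, -0.19 and 0.07 in irradiated cells and 0.19, 0.11 and 0.28 in unirradiated cells. These groups did not overlap either, with a shift of -0.24 (exact p 0.1, adjusted 0.15). As no pair could reach a p under 0.05 with these arrays, the test does not decide whether the shifts are real.

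**Figure D4:**
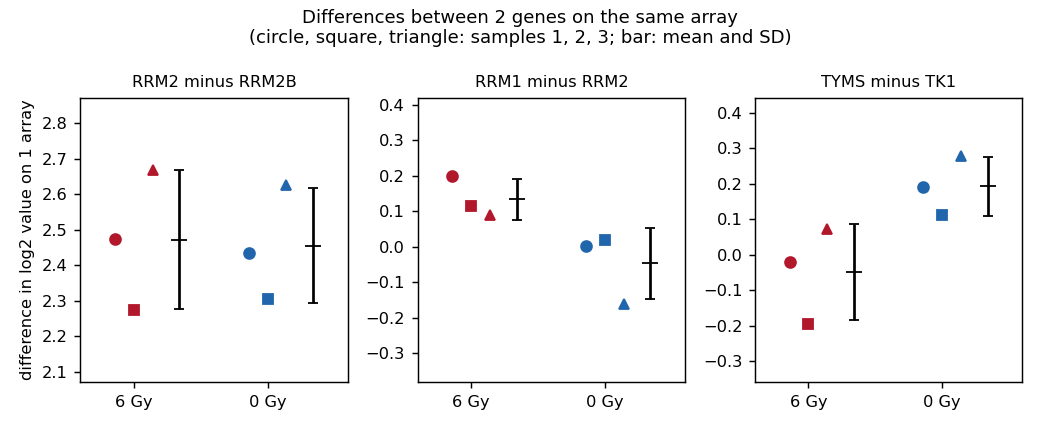
Difference in log2 value between 2 genes on the same array (vertical axis, of the same span in every panel) on irradiated (6 Gy, red, left) and unirradiated arrays (0 Gy, blue, right), with the mean and SD of each dose. RRM1 minus RRM2 and TYMS minus TK1 are apart between the doses, with shifts of 0.18 and -0.24; RRM2 minus RRM2B overlaps.

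Around the 9 enzymes, 59 of 65 listed genes of nucleotide metabolism were read. Of these, 5 rose, 6 fell and 48 did not pass, with a median log2 difference of -0.01. These counts lie close to the shares of all genes, of which 6.35% rose and 8.18% fell. The values of the doses did not overlap for 23 of the 59 (39.0%), against 34.7% of all genes. Nucleoside salvage and transport held 6 of the 11 changed genes. UCKL1, related to the uridine-cytidine kinases, fell by 0.73 (limma adjusted p 2.06e-04) and TK2, the mitochondrial thymidine kinase, fell by 0.65 (adjusted p 0.00434), both also with any array left out. PNP, purine nucleoside phosphorylase, rose by 0.34 (limma adjusted p 0.00740). The other 3 were chosen after their values were seen: ADA, adenosine deaminase, rose by 0.32, TYMP, thymidine phosphorylase, by 0.26, and SLC29A2, a nucleoside transporter, fell by 0.28. The limma call ended without any 1 of 5 arrays for TYMP (adjusted p up to 0.142; not without irradiated replicate 1) and SLC29A2 (up to 0.0746; not without irradiated replicate 3). The salvage list had 15 measured members, of which 3 rose and 3 fell, and a median of 0.00. Of all genes, 14.5% changed in either direction.

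Folate enzymes feed TYMS with methylene groups. Of 8 measured, 3 fell and 0 rose, with a median of -0.07, where 8.18% of all genes fell and 6.35% rose. MTHFD2, a mitochondrial folate enzyme, fell by 0.46 (limma adjusted p 0.00169), GGH, which trims folate polyglutamates, fell by 0.45 (0.00256) and SHMT2, mitochondrial serine hydroxymethyltransferase, fell by 0.24 (0.0324). The call of SHMT2 ended with any 1 array left out (adjusted p from 0.0535 to 0.115). The count of 0 that rose was 1 in 5 alternatives: without irradiated replicate 2, without the dimmest 33.3% of genes, after quantile normalization, with an intensity trend and with array weights. The folate carrier gene SLC19A1, named after its value was seen, was near the threshold, with a difference of 0.21 and a limma adjusted p of 0.0546.

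Of 5 de novo pyrimidine genes, UMPS, which makes UMP, rose by 0.44 (limma adjusted p 0.00356). DHODH differed by -0.30 (adjusted p 0.0746 in limma) and was called in 4 alternatives: without unirradiated replicate 3 (0.0350), without the dimmest 33.3% of genes (0.0478), with array medians subtracted (0.0397) and with array weights (0.0360). CAD differed by -0.16 (limma adjusted p 0.196). None of the 12 de novo purine genes was called in limma (0 of 12, and 1 of them, GART, at an unadjusted p under 0.05). GART differed by -0.17, PFAS by -0.14 and ATIC by 0.13 (limma adjusted p 0.157, 0.199 and 0.250). Among 9 nucleotide kinases NME4, a mitochondrial nucleoside diphosphate kinase, rose by 0.41 (limma adjusted p 0.00556), while NME2 differed by -0.14 (called with an intensity trend alone, 0.0370) and NME6 by -0.13. Of 10 nucleotidases and pool-cleaning enzymes 0 were called in limma, and 2 had an unadjusted p under 0.05: ITPA, which removes inosine triphosphate, differed by -0.21 and NT5C2 by -0.21 (adjusted p 0.0917 and 0.117; ITPA was called with array medians subtracted, 0.0473). NT5M, the mitochondrial deoxynucleotidase, differed by -0.18 (limma adjusted p 0.178). The share of all genes called in either direction was 14.5%.

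**Figure D5:**
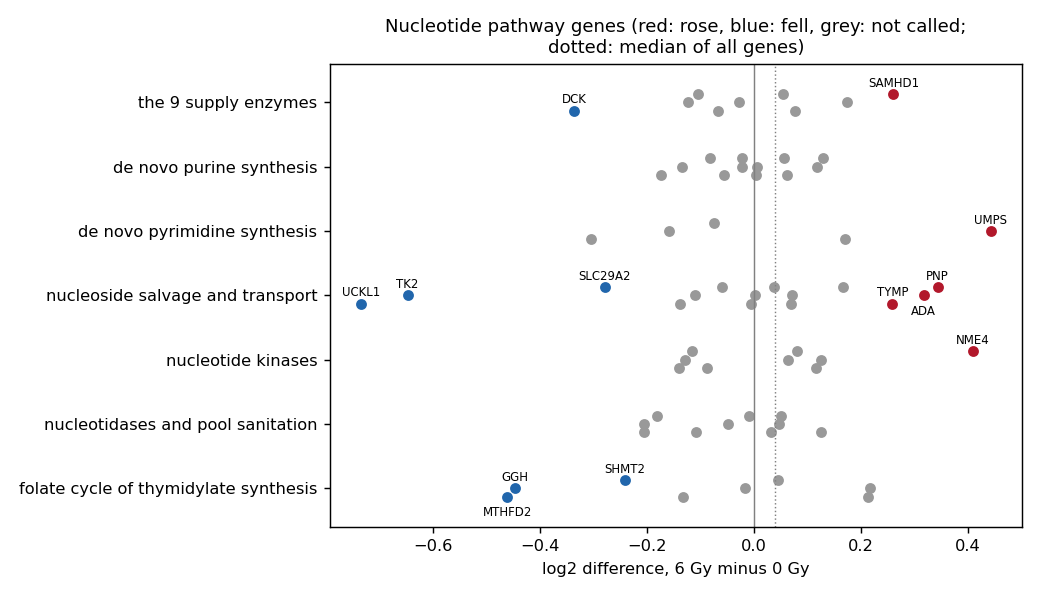
Log2 difference (6 Gy minus 0 Gy, horizontal axis) of the 9 supply enzymes and of 59 other nucleotide genes in 6 groups (rows); 1 point a gene, red where it rose, blue where it fell and grey where it was not called. The changed points of the salvage row lie on either side of 0, from UCKL1 (-0.73) to PNP (0.34), and those of the folate row lie below 0.

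DNA replication uses what these enzymes supply, so genes of replication and of the G1/S transition were read too. Among 34 of them, 6 fell, 1 rose and 27 were not called, with a median log2 difference of -0.06. Of all genes, 8.18% fell and 6.35% rose. The 6 that fell were PRIM1 (-0.46), MCM7 (-0.43), RFC4 (-0.39), MCM3 (-0.35), LIG1 (-0.33) and POLA1 (-0.26), named after their values were seen. PCNA, the sliding clamp, had 10.36 in irradiated and 10.64 in unirradiated cells on average and differed by -0.28 (limma adjusted p 0.0579). It was called without irradiated replicate 3 (0.0170) and in 4 other alternatives (adjusted p down to 0.0142). The 1 that rose was the cyclin gene CCNE2 (0.42, named after its value was seen). In other settings 2 rose (without the dimmest 33.3% of genes, after quantile normalization, with array weights) or 3 rose (with an intensity trend), 0 rose at an adjusted p under 0.01, and from 4 to 8 fell. RRM1, RRM2, TYMS and TK1, the members best known for S-phase expression, lay between -0.11 and 0.17. The differences of the 34 listed genes ran from -0.46 to 0.42, but a longer list spans more by its size, and 27 of them were not called.

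DCK had the smallest p of the 9 members, and the 3 other genes whose 6 array values followed it most closely were SNORD53, PSMG2 and FLI1 (Pearson's r 0.998, 0.996 and 0.995 over 6 arrays). The 6 points share 2 doses and the genes were picked from the 18408 non-members, so these values only describe the arrays. SNORD53 differed by -0.32, PSMG2 by -0.09 and FLI1 by -0.23 between the doses (limma adjusted p 0.0238, 0.392 and 0.0730).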

How the data were processed

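Expression was measured on 6 one-colour arrays of an established cell line. The authors deposited a table of 33297 probe set values per array, read here as log2 intensities from their range; how they were scaled and background-corrected, and with what software, is not given in the sources used here, and scanner files were not used. Scaling between arrays would hide a shift common to all transcripts. Gene names came from the platform's annotation table, which can be old: 19460 listed 1 gene, 1754 several and 12083 none; 19429 of the 19460 matched RefSeq by gene ID.

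The 3 irradiated and 3 unirradiated arrays were compared with limma 3.58.1 in R 4.3.3 (lmFit and eBayes, two-sided, without covariates or a filter on dim genes), with Benjamini-Hochberg adjustment over 18417 genes. Residual degrees of freedom were 4 and prior ones 5.85. The fit was tested on simulated data with independent noise, which carry no effect shared by the samples of a dose. Pairs of members were compared by exact permutation. Text values are mean ± SD or difference ± SE of limma. Tables were made with pandas 2.3.3 and numpy 2.4.6.

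Beside the members, 6 lists of nucleotide genes, 1 of DNA replication and G1/S genes and 1 of p53 targets were read. The members and lists were chosen with earlier results of these data known. Named are all members, the 3 genes with the smallest p of each nucleotide list, CDKN1A, MDM2 and PCNA, and the 3 genes most like the member with the smallest p. Alternatives were the sample number as a block, each array left out, no genes from the dimmest 33.3%, quantile normalization, subtracted array medians, an intensity trend, array weights, mean probe sets, every probe set tested and an adjusted p under 0.01. No promoter sequence is given for RRM2B.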

Additional observations from a re-analysis of the deposited data

How the results depend on the processing

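The differences of SAMHD1 and DCK ran from 0.23 to 0.30 and from -0.42 to -0.27 in the 14 alternative fits. Neither gene kept its call in all of them. Only quantile normalization and subtracted array medians could have turned the sign, as the doses did not overlap for either gene. The sign was kept there. The count of members that rose was 0 with a replicate block on the sample number (SAMHD1 adjusted p 0.0670), with array medians subtracted, with every probe set tested and at an adjusted p under 0.01, and from 0 to 1 with an array left out. The count that fell was 0 with every probe set tested and at an adjusted p under 0.01, and from 0 to 1 with an array left out. The block did not end the call of DCK (limma adjusted p 0.0408). After quantile normalization DCK differed by -0.27 and was just under the threshold (limma adjusted p 0.0487). The numbers need not pair the samples: deviations of same-numbered arrays correlated at -0.042, 0.103 and -0.111, and not every array correlated best with its own number. Of all genes, 765 rose with the replicate block, 729 with every probe set tested, 384 at an adjusted p under 0.01 and from 619 to 887 with an array left out, against 1169 as reported. From 852 to 1324 fell with an array left out and 693 at an adjusted p under 0.01, against 1507 as reported. Counts over the 59 other nucleotide genes stayed within 1.5 times of the reported ones in every alternative run (4 to 6 rose, 4 to 8 fell). Same-numbered arrays differenced as a replicate block give the same shifts of the 3 pairs by arithmetic. The exact p was no smaller than 0.25, the lowest that 3 differences allow, so this setting decides nothing about the pairs. RRM2 minus RRM2B shifted by -0.003 after quantile normalization and from -0.080 to 0.116 with an array left out, against 0.02. DUT differed by -0.108 to 0.033 with an array left out, above 0 without irradiated replicate 1 alone, against -0.03. The cause of these changes was not tested, beyond the fewer arrays or added features in a fit. With 3 arrays a dose the median SE of a member's difference was 0.07.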

Other observations

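The irradiated arrays varied more than the unirradiated ones for 7 of the 9 members, as for 56.3% of all genes. The SD over irradiated and over unirradiated arrays was 0.20 and 0.07 for RRM2B, 0.15 and 0.03 for DUT, and 0.15 and 0.04 for DCK, whereas it was 0.02 and 0.02 for RRM1. Irradiated replicate 2 was the highest of the 3 irradiated arrays for 6 of the 9 members (RRM1, RRM2B, TK1, DCK, DUT and SAMHD1), and for 36.4% of all genes.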
